A study of Mus musculus with 5 samples.

Results

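Cycling T lymphocytes of the mouse kidney were examined across 3 stages of aristolochic acid injury. They were chosen by raw UMIs (unique molecular identifiers, 1 per captured RNA molecule). A barcode was a T lymphocyte with at least 2 UMIs of Cd3e, Cd3d and Cd3g together, at most 2 of C1qa, C1qb and C1qc, and at most 1 of Egfl7 and Plvap. It was a cycling one with at least 2 UMIs of Mki67 and Top2a together. The rule found 4251 cells among 27991 T lymphocytes and 60043 kept barcodes. Kept barcodes had no more than 30% of UMIs from mitochondrial genes and 200 or more genes.

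Kidneys came from wild-type male C57BL/6 mice, 8 to 10 weeks old. Aristolochic acid I (AAI), a plant nephrotoxin, was injected into the peritoneum at 3 mg/kg, 1 dose in every 3 days, over 2 weeks. The control library (week 0, vehicle) is a single sample, and AKI (week 2) and CKD (week 4, after 2 weeks without AAI) have 2 libraries each. The labels do not say whether the 2 libraries of a group came from separate animals, so the spread between them may be technical. The members numbered 47 in the control, 527 and 557 in AKI 1 and 2, and 1547 and 1573 in CKD 1 and 2. The libraries held 90028670 to 121316769 UMIs in all, of which 572389 (control) to 23896502 (CKD 2) came from members. Of the members, 91 carried a barcode that also occurs in another library, 57 of them in CKD 2.

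A T lymphocyte that meets its antigen enters the cell cycle, copies its DNA in S phase and divides in mitosis. Mki67 encodes Ki-67, a protein that coats mitotic chromosomes, and Top2a encodes topoisomerase II alpha, which untangles replicated DNA. CD8 cells kill target cells through perforin and granzymes, conventional CD4 cells help other cells through cytokines and CD40 ligand, and Foxp3 is the lineage factor of regulatory T cells, which restrain immune responses.

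The label was checked against cell cycle genes that the rule did not use. The list of mitosis, spindle and cytokinesis genes (43 genes, without the selecting pair) summed to 39.7 and 43.2 UMIs per 10000 in the members of AKI 1 and 2 and to 47.2 and 45.3 in those of CKD 1 and 2. T lymphocytes with no UMI of the pair, called non-cycling here, held 5.57, 5.54, 8.27 and 6.02. The members were not alike. Those with 4 or more UMIs of the pair held 50.2 to 57.8 in these 4 libraries, whereas those with exactly 2 UMIs held 7.41, 8.17, 18.4 and 8.58. Cells with 1 UMI, just outside the threshold, held 6.27, 6.47, 12.04 and 7.58. In each of these 4 libraries, cells just inside the threshold thus lay nearer to those just outside it than to the strongly positive cells. Members with exactly 2 UMIs were many: 194 of 527 members in AKI 1, 212 of 557 in AKI 2, 458 of 1547 in CKD 1 and 400 of 1573 in CKD 2. For this reason the cycling share, the Foxp3 share and several counts of CKD against AKI levels below are also given for members with 4 or more UMIs.

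**Figure D1:**
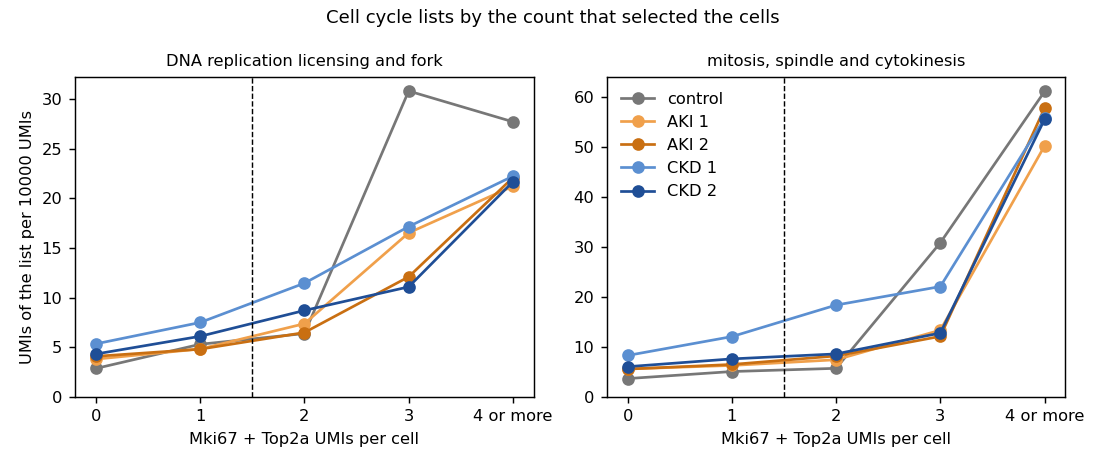
Summed UMIs of 2 cell cycle lists per 10000 UMIs (y axes) in T lymphocytes grouped by their Mki67 + Top2a UMIs (x axis), with 1 line per library; the dashed line marks the selection threshold. In AKI 1 the mitosis list stands at 7.41 in cells with 2 UMIs and at 50.2 in cells with 4 or more.

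Free RNA adds UMIs to cells that do not express a gene. Proximal tubule cells, which should lack the pair at rest, had at least 1 UMI of it in 2.26% (control), 7.61% (AKI 1), 7.16% (AKI 2), 14.8% (CKD 1) and 7.41% (CKD 2) of cells, at median depths of 3720.5 to 10521 UMIs. With at least 2 UMIs these shares were 0.968%, 1.34%, 3.13%, 4.41% and 3.29%, and with at least 4 UMIs 0.806%, 0.895%, 2.01%, 1.57% and 2.88%. Tubule cells that divide would also count here, so the part of free RNA in these shares was not tested. Members were also deeper than non-cycling T lymphocytes, with medians of 7843 to 11985 UMIs against 3149 to 5129.

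The share of T lymphocytes that cycled was higher in both CKD libraries than in both AKI libraries. It was 3.88% in the control (exact 95% binomial interval 2.87 to 5.13), 8.08% in AKI 1 (7.43 to 8.77), 9.10% in AKI 2 (8.39 to 9.84), 20.1% in CKD 1 (19.2 to 21.0) and 24.4% in CKD 2 (23.4 to 25.5). These intervals cover counting error only. The groups did not overlap, and the mean was 8.59% in AKI and 22.3% in CKD, a difference of 13.7 percentage points against a pooled SD of 2.23 (n = 2 libraries each). An exact permutation test of 2 libraries against 2 cannot go below p = 0.3333, so no test was made. Among all T lymphocytes, cells with at least 4 UMIs of the pair made up 1.82%, 4.22%, 4.36%, 11.5% and 15.4% in the same library order. After each cell was thinned to 2000 UMIs the shares were 1.92%, 3.45%, 4.01%, 11.4% and 10.3%, and CKD again lay above AKI, but CKD 1 then lay above CKD 2; thinning left out 64, 375, 332, 1185 and 174 shallower T lymphocytes.

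**Figure D2:**
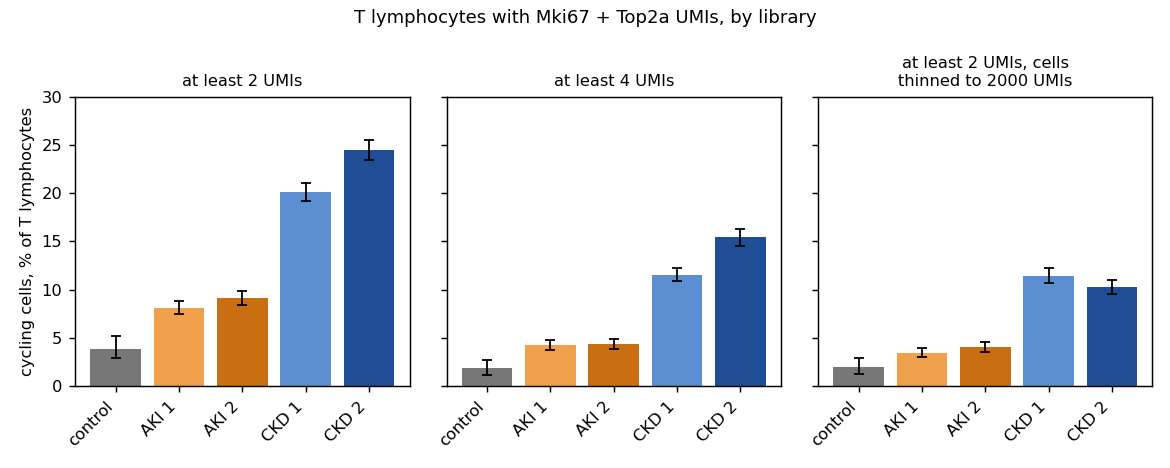
Cycling cells as a percentage of T lymphocytes (y axis) in each library, for the selection rule (left), a stricter count (middle) and cells thinned to 2000 UMIs (right); whiskers are exact 95% binomial intervals. Both CKD bars (20.1% and 24.4% at left) stand above both AKI bars (8.08% and 9.10%) in every panel.

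Of all kept barcodes, members were 0.513% in the control, 4.70% and 5.13% in AKI, and 8.01% and 16.5% in CKD. T lymphocytes themselves made up 13.2%, 58.2%, 56.4%, 39.9% and 67.7% of kept barcodes, so the 2 CKD libraries differed widely in what else they held.

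Gene programmes of division set the members apart from non-cycling T lymphocytes, a contrast that chose the cells and is therefore only described. The 12 genes whose smallest ratio in any AKI or CKD library was highest, among those with at least 0.5 UMIs per 10000 in members, were Hmmr, Hist1h3c, Tpx2, Cenpf, Hist1h2ab, Kif15, Ccna2, Nusap1, Hist1h2ae, Cdca8, Kif11 and Cenpe. Most encode spindle, kinetochore or motor proteins, 3 are replication-dependent histones, and Ccna2 encodes cyclin A2, which drives S phase and mitosis. Hmmr, a spindle-associated protein, held 0.68, 0.78, 0.90 and 0.80 UMIs per 10000 in the members of AKI 1, AKI 2, CKD 1 and CKD 2, which was 229, 162, 17.1 and 65.5 times its non-cycling level. Cdca8, a chromosomal passenger subunit, held 1.90, 2.12, 2.26 and 2.17, or 52.3, 51.8, 10.8 and 32.6 times the non-cycling level. For each of these 12 genes the smallest ratio was that of CKD 1, where the non-cycling cells held the most. In the control, Hmmr counted 58 UMIs in 47 members and 2 UMIs in 1078 non-cycling cells.

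The promoters of these genes are shown because the genes moved together and because many cell cycle promoters are known to carry CCAAT boxes and a cell cycle homology element. The 150 bases before the RefSeq start site were read for CCAAT and for TTTGAA or TTCGAA, on both strands; matches are in capitals. The windows are chr11:40733438-40733587 (minus strand) for Hmmr, chr4:124936918-124937067 (minus strand) for Cdca8 and chr19:37376232-37376381 (plus strand) for Kif11, all in GRCm38.p6.
Hmmr: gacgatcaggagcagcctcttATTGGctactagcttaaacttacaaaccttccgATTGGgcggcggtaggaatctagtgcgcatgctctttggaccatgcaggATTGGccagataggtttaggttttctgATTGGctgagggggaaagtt
Cdca8: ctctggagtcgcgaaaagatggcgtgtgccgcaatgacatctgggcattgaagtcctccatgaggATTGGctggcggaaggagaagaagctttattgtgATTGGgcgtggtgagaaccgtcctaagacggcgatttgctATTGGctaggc
Kif11: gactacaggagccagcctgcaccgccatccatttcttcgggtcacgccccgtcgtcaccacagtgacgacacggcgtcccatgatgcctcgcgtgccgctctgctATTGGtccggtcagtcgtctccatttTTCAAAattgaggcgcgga

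Hmmr held 4 CCAAT matches in this window, Cdca8 held 3, and Kif11 held 1 together with 1 match to TTTGAA. Of the other genes named above that have a window, Cenpf held 2 CCAAT matches and Cenpe 1, Kif15 held 0 with 1 match to TTTGAA or TTCGAA, and Nusap1 held 0 of either. Of the 36 genes of the mitosis list with a window, 27 (75.0%) held CCAAT, against 25.3% of all 27025 genes with a window. TTTGAA or TTCGAA occurred in 12 of the 36 (33.3%), against 9.89% of all. These are matches of letters and not shown binding sites.

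The genes lowest in members relative to non-cycling cells were Spp1, Ccl4, Defb1, Il7r, Ccl5 and Timp3. Il7r encodes the interleukin-7 receptor chain of resting and memory T cells; it held 0.66, 0.86, 0.29 and 0.65 UMIs per 10000 in the members of AKI 1, AKI 2, CKD 1 and CKD 2 against 1.65, 2.09, 0.76 and 1.88 in non-cycling cells. Spp1, Defb1 and Timp3 are kidney transcripts known from tubule and stromal cells. The list of proximal tubule transcripts likewise summed to 19.6, 18.1, 41.8 and 9.71 in members against 58.0, 49.4, 101 and 19.8 in non-cycling cells. The part of free RNA and depth in these ratios was not tested.

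CD8 cells were the largest class among the members of every library. Classes were cut by UMIs of Cd8a and Cd8b1, Cd4, and Foxp3 (a Foxp3 UMI took precedence). The CD8 class, with Cd8 UMIs and no Cd4 or Foxp3 UMI, made up 18 of 47 members in the control, 44.0% (39.7 to 48.4) in AKI 1, 36.6% (32.6 to 40.8) in AKI 2, 40.8% (38.3 to 43.3) in CKD 1 and 39.0% (36.6 to 41.4) in CKD 2. The conventional CD4 class held 10 of 47, then 23.5%, 28.0%, 22.2% and 30.1%. For both classes AKI and CKD overlapped, with differences in means of -0.44 points for CD8 (pooled SD 3.81) and 0.42 points for conventional CD4 (pooled SD 4.54).

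The Foxp3 class was smaller in CKD. It made up 11.0% (8.46 to 14.0) of the members in AKI 1 and 13.8% (11.1 to 17.0) in AKI 2, against 4.98% (3.95 to 6.18) in CKD 1 and 7.31% (6.07 to 8.71) in CKD 2, and the groups did not overlap. The means were 12.4% and 6.14%, a difference of -6.27 points with a pooled SD of 1.83 (n = 2 each). In the control, 1 of 47 members carried a Foxp3 UMI. Among members with at least 4 UMIs of Mki67 and Top2a the Foxp3 shares were 14.5%, 18.7%, 6.41% and 8.68% in AKI 1, AKI 2, CKD 1 and CKD 2. Non-cycling T lymphocytes showed 4.87%, 6.78%, 1.71% and 4.42%, so a lower Foxp3 share in CKD was not confined to members. In cells thinned to 2000 UMIs the shares were 4.72%, 5.17%, 1.61% and 3.12%, from 10, 12, 12 and 20 Foxp3 members. In number, all Foxp3 members were 58, 77, 77 and 115.

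**Figure D3:**
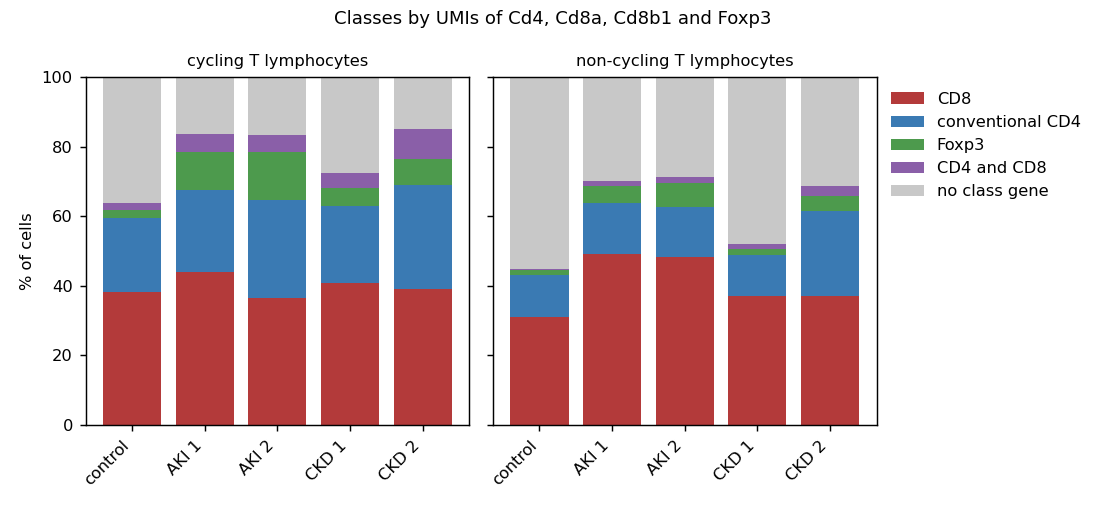
Make-up of cycling (left) and non-cycling (right) T lymphocytes by class (y axis, % of cells) in each library; grey bars are cells without a UMI of any class gene. Foxp3 members fill 11.0% and 13.8% of the AKI bars and 4.98% and 7.31% of the CKD bars at left.

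Cells with both Cd4 and Cd8 UMIs made up 4.46% to 8.58% of members in the 4 injury libraries, and 86 of 527, 93 of 557, 426 of 1547 and 236 of 1573 had no UMI of a class gene. Depth moved with class. Foxp3 members had median depths of 14147 to 18277 UMIs and double-positive ones 12299 to 16119, against 7320.5 to 12241 for CD8 and 4812 to 6683.5 for unclassed members; the part of depth in these shares was not tested beyond thinning. Of the Foxp3 members, 20.8% to 31.3% also held a Cd8 UMI. In proximal tubule cells, a Cd8 UMI was found in 2.10% to 10.7% of cells, a Cd4 UMI in 0.403% to 2.24% and a Foxp3 UMI in at most 0.895%. No caller for doublets (2 cells under 1 barcode) was run.

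Within each class the cycling share was also higher in CKD. It was 7.35%, 7.04%, 21.6% and 25.6% of CD8 cells in AKI 1, AKI 2, CKD 1 and CKD 2. Of conventional CD4 cells, 12.2%, 16.1%, 31.5% and 27.9% cycled. Of Foxp3 cells, 16.2%, 16.3%, 38.9% and 34.4% did. Among these 3 classes, Foxp3 cells had the highest share and CD8 cells the lowest in each of these 4 libraries. Cells with both Cd4 and Cd8 UMIs lay above Foxp3 cells, at 18.6%, 19.6%, 42.6% and 46.2%, and cells with no UMI of a class gene lay below CD8 cells, at 4.65%, 5.65%, 12.8% and 13.8%. The control, with 16 Foxp3 T lymphocytes, was below the minimum of 20 cells per class and was not tested. CD8 minus conventional CD4 cells averaged -6.52 points (SD 3.59, lower in 4 of 4 libraries), and Foxp3 cells lay 4.56 points above conventional CD4 and 11.1 above CD8 (higher in 4 of 4). Each comparison gave p = 0.125 in the two-sided exact sign-flip permutation test (adjusted p = 0.125 over 3), the smallest that 4 libraries allow. These differences changed with thinning and with how classes were cut. Thinning left out shallow cells and called cycling cells and classes anew from fewer UMIs, so the part of depth alone was not tested. In cells thinned to 2000 UMIs the means of CD8 minus CD4, Foxp3 minus CD4 and Foxp3 minus CD8 were -0.25, 1.04 and 1.28 points. With classes cut from 2 UMIs they were -15.6, 0.59 and 16.2 points, and Foxp3 cells then lay above CD4 cells in 2 of 4 libraries.

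The genes of the members were then compared between CKD and AKI, with UMIs summed per library. The quasi-likelihood test of edgeR, with p-values adjusted by Benjamini and Hochberg's method, called 0 of 12624 genes (0.0%) at adjusted p under 0.05, although 770 had an unadjusted p under 0.05. DESeq2 called 78. Non-cycling T lymphocytes gave 0 of 14377 (0.0%) with 729 at an unadjusted p under 0.05, and 51 by DESeq2. The 2 CKD libraries differed from each other: without CKD 1 the count for members became 119, and without CKD 2 it became 252, where the lone CKD library is assumed to vary like the AKI pair. No gene is therefore called as changed between CKD and AKI, and the values that follow are levels.

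Levels of division genes in members lay higher in CKD for many genes of the mitosis list. Of its 43 genes, 28 had both CKD libraries above both AKI libraries and 3 had both below, where 20% of all genes lay above and 18.2% below; 0 of 43 passed the test and the median log2 fold change was 0.18 (near 0 over all genes). For replication licensing and fork genes 15 of 25 lay above and 0 below (median 0.12), and for nuclear respiratory chain genes 20 of 29 above and 0 below (median 0.17). In non-cycling cells the medians were larger, at 0.96 for mitosis, 0.37 for replication and 0.36 for respiratory chain genes (0.01 over all genes). There too 0 genes of these lists passed the test, and CKD 1 had the highest sum of each list. The non-cycling sums in AKI 1, AKI 2, CKD 1 and CKD 2 were 5.57, 5.54, 8.27 and 6.02 for mitosis. For replication they were 3.80, 4.08, 5.34 and 4.31. For respiratory chain genes they were 97.4, 87.8, 140.7 and 94.0, with CKD 2 between the AKI libraries. Birc5, the survivin subunit of the chromosomal passenger complex, held 2.84 and 2.99 UMIs per 10000 in AKI and 3.64 and 3.51 in CKD. Pcna, the replication clamp, held 3.05 and 2.66 against 2.84 and 2.85 and overlapped. Members with 4 or more UMIs of the selecting pair made up 52.2% and 47.9% of AKI members and 57.5% and 63.0% of CKD members, and the part of this in the counts was not tested. Among the members with 4 or more UMIs, 11 of 43 mitosis genes (25.6%), 6 of 25 replication genes (24.0%) and 6 of 29 respiratory genes (20.7%) lay above, near the 19.1% of all genes.

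Chemokine genes showed lower levels in CKD members. Of 12 chemokine and TNF ligand genes, 0 lay above and 9 lay below, where 20% of all genes lay above and 18.2% below. The test passed 0 of them (median log2 fold change -0.49, and -0.18 in non-cycling cells). Xcl1, a chemokine that attracts cross-presenting dendritic cells, held 6.44 and 6.31 UMIs per 10000 in AKI members and 3.07 and 3.16 in CKD members, with 4.04 in the control (log2 fold change -1.05 ± 0.09 SE, edgeR adjusted p = 0.184). Ccl4, a chemokine of activated T cells, held 9.95 and 9.72 against 5.90 and 5.74 (-0.77 ± 0.08 SE, adjusted p = 0.184). Ccl5 held 27.0 and 28.9 against 15.8 and 21.3. Ltb, a lymphotoxin subunit, held 4.45 and 6.08 against 5.25 and 5.95 and overlapped. Among members with at least 4 UMIs, 7 of the 12 genes still lay below, against 15.1% of all genes. Non-cycling cells held Ccl4 at 24.2 and 26.4 in AKI and at 15.4 and 15.5 in CKD.

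**Figure D4:**
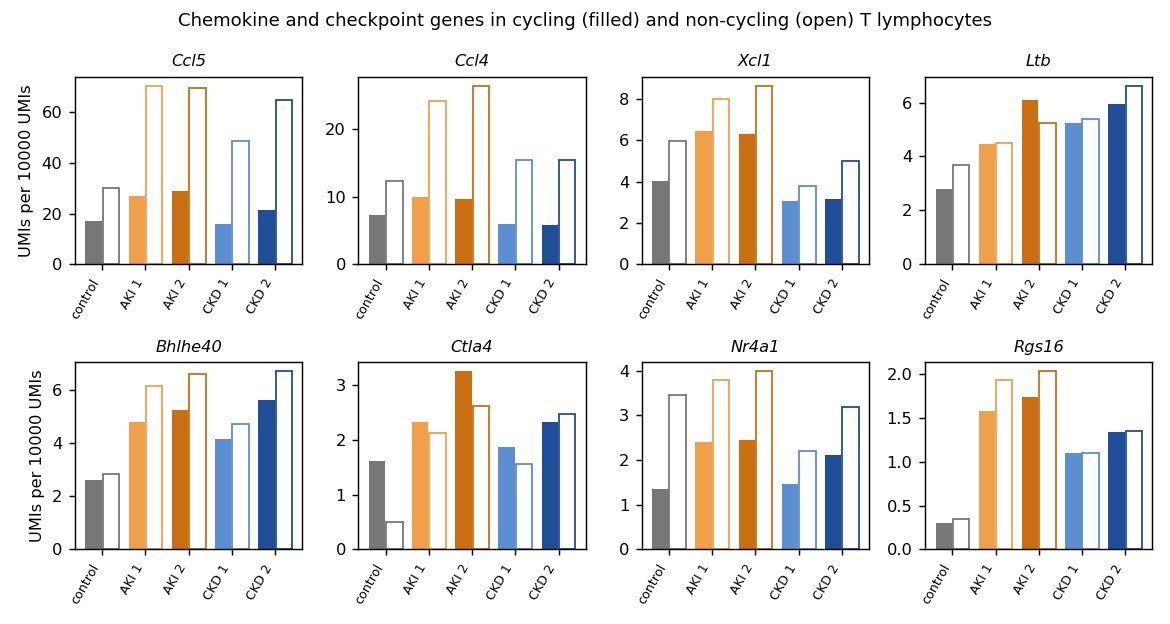
UMIs per 10000 UMIs (y axes, each from 0) of 4 chemokine or TNF ligand genes and 4 checkpoint genes in cycling (filled bars) and non-cycling (open bars) T lymphocytes of each library. Filled bars for Xcl1 reach 6.44 and 6.31 in AKI and 3.07 and 3.16 in CKD.

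Checkpoint and exhaustion genes followed the same order of levels. Of 16 tested, 10 lay below in CKD, 1 above, and 0 passed (median -0.43), where 18.2% of all genes lay below and 20% above. Among members with at least 4 UMIs, 12 lay below, against 15.1% of all genes. The lower levels were not confined to members: in non-cycling cells the median of this list was -0.41, with 0 past the test. For the dissociation and stress list below, the median was -0.42 in members and -0.43 in non-cycling cells. Rgs16, a regulator of G protein signalling, held 1.58 and 1.75 in AKI members against 1.11 and 1.34 in CKD members, with 0.30 in the control. Nr4a1, an early gene of receptor signalling, held 2.40 and 2.45 against 1.48 and 2.11, and Nr4a2 1.57 and 1.73 against 1.03 and 1.32. Ctla4, which competes with CD28 for its ligands, held 2.33 and 3.25 against 1.87 and 2.34, and the groups overlapped. The dissociation and stress list, whose early genes also answer receptor signalling, had 13 of 20 genes below and 1 above (10 and 1 from 4 UMIs), against the same shares of all genes, and its sum was 112 and 122 in AKI members and 101 and 89.5 in CKD members; its part in these levels was not tested. Of 21 regulatory T cell genes 9 lay below and 0 above (median -0.38; 9 and 1 from 4 UMIs), beside the lower share of Foxp3 members. Of 19 cytotoxic genes 6 lay above and 5 below (median -0.03), where 20% of all genes lay above and 18.2% below. From 4 UMIs, 9 of the 19 (47.4%) lay above and 1 below, against 19.1% and 15.1% of all genes.

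The change from AKI to CKD was compared between members and non-cycling cells in 1 model with library as a block. It called 6 of 14544 genes (0.0413%), all with a more negative change in members: Upk3a, Fxyd3, Ly6d, S100a9, Foxq1 and Gstm1. Upk3a encodes a uroplakin of the urothelium and S100a9 a neutrophil calcium-binding protein. Much of their signal lay in 1 barcode of each AKI library. In AKI 1, 1 of 527 members held 334 of the 338 Upk3a UMIs, and that barcode was the highest of its library for 5 of the 6 genes and had 74318 UMIs in all. In AKI 2, 1 member held all 73 Upk3a UMIs, was the highest for 5 of the 6 and had 27413 UMIs. Without cells that carry markers of other cell types the model called 36 genes, and 0 of the 6 were among them.

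Within members, CD8 cells held more cytotoxic and residency transcripts and conventional CD4 cells more helper transcripts. With library as a block in edgeR, 902 of 10036 genes passed (8.99%), 459 higher in CD8 cells (4.57%) and 443 lower (4.41%). The counts were 525 without CKD 1 and 479 without CKD 2. The control entered neither class comparison, with 18 CD8 and 10 conventional CD4 members. Of 18 cytotoxic genes tested 14 were higher and 0 lower (median log2 fold change 1.29, all genes 0.01). Natural killer markers moved with them: 5 of 6 tested (Klre1, Gzma, Eomes, Tyrobp, Nkg7) were higher in CD8 members and 0 lower, with Gzma and Nkg7 in both lists. The 11 markers summed to 13.2 to 17.8 UMIs per 10000 in CD8 members and 4.53 to 5.0 in conventional CD4 members, while the defining marker Ncr1 held at most 0.00515 in CD8 members; the part of natural killer cells was not tested. Gzma, a granzyme, held 2.26, 3.96, 2.84 and 3.33 UMIs per 10000 in CD8 members of AKI 1, AKI 2, CKD 1 and CKD 2 against 0.115, 0.163, 0.156 and 0.256 in conventional CD4 members (4.11 ± 0.12 SE, edgeR adjusted p = 2.1e-09). Prf1, the pore-forming perforin, held 0.140, 0.165, 0.101 and 0.111 against 0.0182, 0.00561, 0 and 0.00427 (4.60 ± 0.43 SE, adjusted p = 2.8e-05). The classes did not overlap in either gene. Among members of all classes, 63 of 527 in AKI 1, 60 of 557 in AKI 2 and 299 of 1547 in CKD 1 had a Gzma UMI. The 10 highest cells held 75.5%, 81.3% and 31.3% of these UMIs.

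The genes with the largest excess in CD8 members were Klrc1, Wdr95, Klrc2, Prf1, Ly6c2, Adgrg5, Gzma and Bend4. Klrc1 and Klrc2 encode NKG2 receptors; Klrc1 held 0.199 to 0.329 in CD8 members and at most 0.0067 in conventional CD4 members. Tissue residency genes were higher for 11 of 15 and lower for 2 (median 0.53); Itgae, the integrin that binds epithelial cadherin, rose by 2.01 ± 0.13 SE on the log2 scale and Itga1, a collagen-binding integrin, by 1.59 ± 0.14 SE. Checkpoint genes went both ways, 8 higher, among them Havcr2, Cd160, Lag3 and Pdcd1, and 4 lower, among them Tox2 and Ctla4. Tcrg-C1 and Tcrg-C2, constant genes of the gamma-delta receptor, were both higher, as the 2 of 4 gamma-delta and innate-like genes that passed.

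Conventional CD4 members held more of several helper genes. Of 13 helper lineage factors and cytokines tested, 6 were lower in CD8 members and 1 higher (median -0.61). Over all genes 4.41% were lower and 4.57% higher. Cd40lg, the ligand that licenses B cells and macrophages, held 0.594, 0.494, 0.252 and 0.425 against 0.0554, 0.0772, 0.0271 and 0.0394 in CD8 members (-3.19 ± 0.15 SE, adjusted p = 2.1e-07). Il21, a cytokine of follicular helper cells, differed by -3.08 ± 0.41 SE and Maf, a factor of helper lineages, by -2.28 ± 0.12 SE. The 8 largest deficits of CD8 members were Stra6, Ccn4, Krt17, Penk, Ccr4, Ebi3, Cd40lg and Il21. Krt17, a keratin, was carried by few cells: 13 members in AKI 1 and 22 in AKI 2 had a UMI of it. Il21 was carried by fewer, with a UMI in 7 members of AKI 1 and 7 of AKI 2. Of 19 regulatory T cell genes 12 were lower in CD8 members and 1 higher, and Tnfrsf4, the OX40 receptor, held 3.58, 4.24, 3.44 and 3.70 in conventional CD4 members against 0.698, 0.700, 0.531 and 0.602. The conventional CD4 class needed only a Cd4 UMI and no Cd8 or Foxp3 UMI. It can thus hold regulatory cells whose Foxp3 RNA was not captured, and their part in these genes was not tested. Interferon-stimulated genes were lower in CD8 members for 9 of 22 and higher for 0 (median -0.31).

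**Figure D5:**
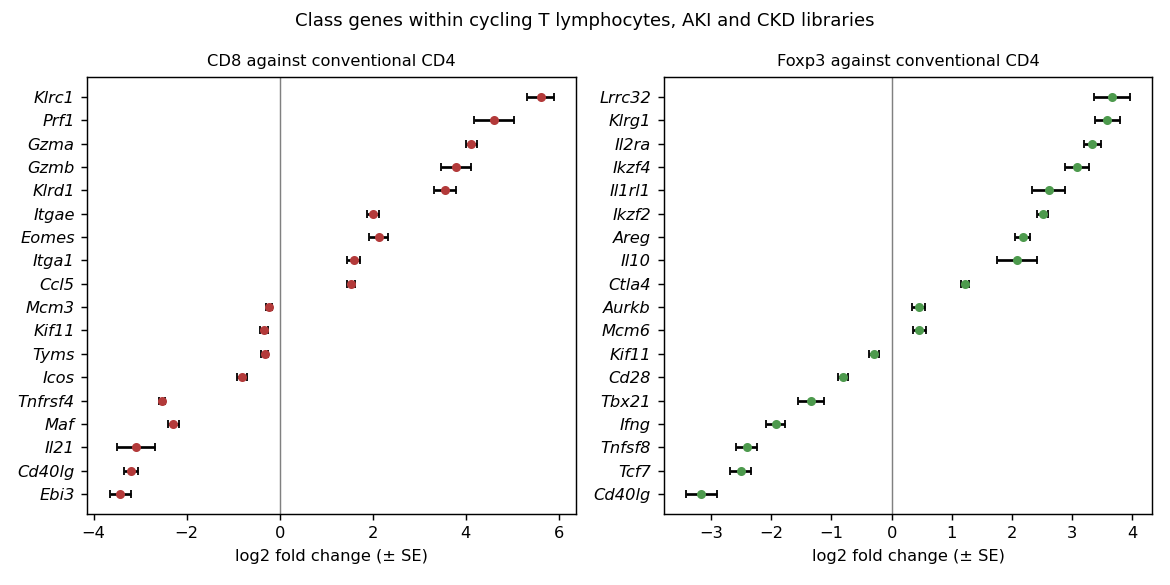
Log2 fold changes (x axes, with SE) of named genes between classes of cycling T lymphocytes, over 2 AKI and 2 CKD libraries; genes to the right of 0 are higher in CD8 (left panel) or Foxp3 members (right panel). Gzma stands at 4.11 and Cd40lg at -3.19 in the left panel, and Il2ra at 3.34 in the right.

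Few cell cycle genes passed between CD8 and conventional CD4 members, where 4.57% of all genes were higher and 4.41% lower. Both classes were chosen by Mki67 and Top2a, so likeness in other cell cycle genes was partly set by the rule. Of 43 mitosis genes 1 was lower in CD8 members (Kif11, -0.34 ± 0.09 SE, edgeR adjusted p = 0.033) and 0 higher, and of 25 replication genes 1 was lower (Mcm3, a subunit of the replicative helicase, -0.22 ± 0.06 SE, adjusted p = 0.049). The medians of the lists were -0.09 and -0.15.

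Foxp3 members held more of most regulatory T cell genes. The class itself was cut on Foxp3 alone, which is left out of these counts. Regulatory cells without a captured Foxp3 UMI would count as conventional CD4 members, and their part was not tested. Against conventional CD4 members, 932 of 8272 genes passed in edgeR (11.3%), 435 higher (5.26%) and 497 lower (6.01%); without CKD 2 the count was 565. Of 19 regulatory T cell genes 16 were higher and 1 lower (Icos; median 1.65, near 0 over all genes). Il2ra, the CD25 chain of the interleukin-2 receptor, held 1.11, 1.32, 0.881 and 0.905 UMIs per 10000 in Foxp3 members of AKI 1, AKI 2, CKD 1 and CKD 2 against 0.0909, 0.112, 0.116 and 0.0812 (3.34 ± 0.14 SE, edgeR adjusted p = 5.0e-07). Ikzf2, the Helios factor, held 3.91, 4.53, 3.65 and 3.71 against 0.661, 0.679, 0.598 and 0.779 (2.51 ± 0.09 SE, adjusted p = 3.2e-07). Areg, a growth factor made by tissue regulatory cells, held 1.53, 1.27, 1.36 and 1.22 against 0.346, 0.196, 0.377 and 0.261 (2.18 ± 0.13 SE, adjusted p = 3.4e-06). The classes did not overlap in these 3 genes.

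The 8 largest excesses of Foxp3 members were Igkc, Lrrc32, Klrg1, Cxcl3, Il2ra, Ltb4r1, Ikzf4 and Ncmap. Lrrc32 encodes GARP, which holds latent TGF-beta on regulatory cells, and Klrg1 marks differentiated ones. Igkc, an immunoglobulin light chain, held 1.28 to 2.14 in Foxp3 members against 0.0424 to 0.156. The B lymphocyte list had 3 genes tested, Igkc, Cd79b and Ighm, and all 3 were higher. Igkc had a log2 fold change of 4.22, of 4.54 without cells that carry markers of other cell types and of 2.77 with classes cut from 2 UMIs; the part of deeper barcodes or of doublets was not tested. Cxcl3 was carried by few cells, 11 members in each AKI library. Glycolysis and nutrient uptake genes were higher for 10 of 21 and lower for 1 (median 0.33), among them Slc16a3, a lactate exporter (1.74 ± 0.24 SE, adjusted p = 0.00092).

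Genes lower in Foxp3 members were led by Cd40lg, Cxcl1, St8sia1, Lbhd2, Enc1, Tcf7, Capn3 and Tnfsf8. For Cxcl1, 1 barcode held 71.4% of the UMIs of all AKI 2 members, and the highest in AKI 1 held 16.7%. Tcf7, a factor of naive and self-renewing T cells, held 0.225, 0.106, 0.229 and 0.148 against 0.897, 1.02, 1.02 and 0.943 in conventional CD4 members. Ifng, the interferon-gamma gene, held 0.581, 0.772, 0.955 and 1.04 against 3.81, 3.23, 2.91 and 3.03 (-1.93 ± 0.16 SE, adjusted p = 3.5e-05), and Tbx21, the T-bet factor upstream of it in helper cells, differed by -1.33 ± 0.22 SE. Of 12 naive and recirculation genes 5 were higher and 2 lower (median 0.38). Ccr7 (2.16 ± 0.22 SE) was among those higher, and Tcf7 and Id3 were lower. Of 10 chemokine and TNF ligand genes 6 were lower and 1 higher (median -1.36). Of the dissociation and stress list 8 of 20 were lower and 0 higher, with Fosb at -1.31 ± 0.19 SE. Of 43 mitosis genes 1 was higher (Aurkb) and 1 lower (Kif11), and of 25 replication genes 2 were higher (Mcm6, Lig1). Over all genes 5.26% were higher and 6.01% lower, and these classes too were chosen by Mki67 and Top2a. The CD8 and Foxp3 comparisons share the conventional CD4 members.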

How the data were processed

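Single-cell suspensions of kidney were sequenced with the 10x Genomics 3′ v2 chemistry. Raw UMI counts (whole numbers, not normalized) for each gene in each barcode were deposited by the authors; the submitters' processing notes name Cell Ranger 7.2.0, STAR and GRCm39, but matrix headers of the injury libraries give a different Cell Ranger version and the control's gene list gives mm10. All 72896 barcodes were read and 60043 kept. Classes needed 1 UMI. Members, gene lists and tests were chosen with earlier results of these data known. UMIs were summed per library, and per class where at least 20 cells were present, and tested in edgeR 4.0.16 (R 4.3.3; filterByExpr, TMM, glmQLFit, glmQLFTest), with DESeq2 1.42.0 as an alternative; threshold, adjusted p under 0.05. The genes of the selection rule and the class genes were left out of the counts they define. Named genes were the 8 largest changes each way past the threshold, of one sign in every library, outside mitochondrial, ribosomal protein and predicted genes; cycling against non-cycling, 12 higher and 6 lower by their least extreme ratio; and for lists, members past the threshold first, then those highest in level. A few list members beyond the first 5 were named after their values were seen (Lag3, Pdcd1, Ctla4, Ikzf2, Areg, Tbx21, Id3). The class test of cycling shares used the 4 libraries with at least 20 cells of each class. Of 502 list symbols, 11 were not matched. Levels are UMIs per 10000 summed UMIs. Scripts were tested on simulated counts. Shares carry exact (Clopper-Pearson) 95% intervals. Replicate numbers were not taken as pairs: deviations of same-numbered libraries correlated at r = 0.237 across genes (0.308 in non-cycling cells), with 2 pairs and no label that ties them. Doublets were not called.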

Additional observations from a re-analysis of the deposited data

Results flagged for a closer look

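The change from AKI to CKD differed between cycling and non-cycling T lymphocytes for 6 genes by the test of the difference itself (edgeR interaction term, adjusted p under 0.05). The log2 difference, change in cycling minus change in non-cycling cells, was -4.80 for Upk3a, -4.25 for Fxyd3, -4.21 for Ly6d, -3.93 for S100a9, -3.15 for Foxq1 and -3.04 for Gstm1. In AKI 1, 1 barcode held 98.8% of the members' Upk3a UMIs, 97.8% of those of S100a9 and 91.3% of those of Gstm1, and in AKI 2, 1 barcode held 94.1% of the S100a9 UMIs and 84.5% of the Gstm1 UMIs. With groups of at most 2 libraries, no library could be tested as standing apart.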

How the results depend on the processing

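The calls between CKD and AKI depended on the setting. For cycling cells, 0 genes were called in edgeR, and 0 with members from 1 UMI or 4 UMIs, without shared barcodes and without double-positive cells. The count was 3 with members from 3 UMIs, 1 at no more than 15% mitochondrial UMIs, 23 without cells carrying other types' markers, 78 by DESeq2, 211 with no filter on low counts, 3 after thinning, 2, 1 and 14 in CD8, conventional CD4 and Foxp3 cells alone, and 3 with equal class numbers. With a replicate block it was 110 (34 higher, 76 lower); only 2 pairs share a number, and no label ties them. Leaving out 1 library gave 0 to 252. For non-cycling cells the count was 51 by DESeq2, 10 with no filter, 5 with the replicate block and 0 to 1300 leaving out 1 library. The count of genes whose change differed between states was 0 from 1 UMI, 10 at no more than 15% mitochondrial UMIs, 3 without shared barcodes, 36 without cells carrying other types' markers, 23 by DESeq2, 256 with no filter and 13 to 113 leaving out 1 library. CD8 against conventional CD4 gave 588 without cells carrying other types' markers, 498 by DESeq2 and 479 to 902 leaving out 1 library; Foxp3 against conventional CD4 gave 609, 480 and 565 to 932. For CD8 against conventional CD4, Tyrobp reversed from 0.55 to -0.12 (log2) with members from 4 UMIs.

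The difference in cycling share (CKD minus AKI) was 17.0 points from 1 UMI, 10.8 from 3 UMIs, 9.19 from 4 UMIs, 7.11 after thinning, 7.36 with all kept barcodes as the denominator and 11.5 to 15.9 leaving out 1 library. The Foxp3 difference stayed negative, at -4.11, -8.30 and -9.09 points from 1, 3 and 4 UMIs, -2.58 after thinning, -4.07 without cells carrying other types' markers and -7.68 to -4.86 leaving out 1 library. The CD8 difference was -6.47 points from 1 UMI and reversed to 1.05 and 1.00 from 3 and 4 UMIs, to 3.25 without AKI 1 and to 0.46 without CKD 2; leaving out 1 library gave -4.14 to 3.25. The conventional CD4 difference reversed to -2.60 after thinning, -1.82 without AKI 1 and -3.53 without CKD 2; leaving out 1 library gave -3.53 to 4.37. Leaving out 1 library moved the differences in cycling share between classes to -7.94 to -5.39 (CD8 minus CD4), 3.61 to 5.99 (Foxp3 minus CD4) and 8.99 to 11.8 points (Foxp3 minus CD8). The causes of these shifts were not tested. The settings from 4 UMIs, without double-positive cells, with equal class numbers and with all kept barcodes were chosen after seeing the data. With 47 members, the control limits any statement on uninjured kidney.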
